A study of Gallus gallus with 2 samples.

Results

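Chromosomes 15 to 21 are 7 of the small chromosomes (microchromosomes) of the chicken. Their CTCF peaks were taken as every row of either deposited peak list whose sequence name is one of these chromosomes, without the chromosome-specific random sequences. The 10 day list held 2089 such peaks of 21358 (9.78%), and the 5 day list held 747 of 5830 (12.8%), which is 2836 of 27188 peaks in all. The peaks come from chromatin immunoprecipitation with a Millipore antibody against CTCF and sequencing of the recovered DNA, in red blood cells labelled 10 day old and 5 day old, with 1 library per age. The stated aim was to examine CTCF binding at 2 developmental stages. The labels give no strain, no genotype and no number of animals, and leave it unstated whether these are days of incubation or days after hatching. Both libraries also carry the same growth and treatment notes, which describe gradient-purified mononuclear blood cells stimulated in culture, at odds with the title, source and cell type fields, which give red blood cells, and peak positions hold no expression against which it could be checked.

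CTCF is a DNA-binding protein with many zinc fingers. It binds insulators and the bases of chromatin loops, where it can halt the cohesin ring that draws a loop out, and boundaries between chromatin domains are often marked by it. In birds the microchromosomes are rich in genes and in G and C bases, with short introns, whereas the macrochromosomes are gene-poor. Chromosome 16 carries the major histocompatibility complex and the ribosomal RNA gene array, and chromosome 15 carries the immunoglobulin lambda light chain locus. Avian red cells keep their nucleus, so their chromatin can be immunoprecipitated.

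Every peak was 399 bp wide, and each had a whole-number score of unstated meaning, from 22 upwards in the 10 day list and from 13 upwards in the 5 day list. Scores were ranked only within their own list. Read totals are not known, nor are the genome build, the peak caller and any input library. Because each age has a single library, variation between animals or preparations was not measured. No test compares the ages, and the 95% intervals given in brackets cover counting error only, over peaks that are not independent replicates. Positions are given as in the deposited files, with the first base counted as 1, and no peak was placed on a gene.

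CTCF peaks lay on all 7 chromosomes at both ages. Together they held 31.6 peaks per Mb at 10 days (30.2 to 33.0) and 11.3 per Mb at 5 days (10.5 to 12.1), over 66.2 Mb up to the last peak of each chromosome. At 10 days the densities ran from 28.8 per Mb on chromosome 18 to 35.3 on chromosome 19. At 5 days they ran from 9.09 per Mb on chromosome 17 to 14.3 on chromosomes 16 and 19. Chromosome 16 spans only 0.419 Mb here and held 13 peaks at 10 days and 6 at 5 days, so its 10 day density of 31.0 per Mb (16.5 to 53.1) and 5 day density of 14.3 per Mb (5.26 to 31.2) are imprecise.

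Among the larger 6, chromosome 19 was the densest at both ages. It had 350 peaks at 10 days and 142 at 5 days. Set against the other 6 chromosomes together, its density was 1.14 times theirs at 10 days (1.01 to 1.28) and 1.33 times at 5 days (1.10 to 1.60). Chromosome 17 was level with the rest at 10 days, with 347 peaks and a ratio of 0.99 (0.88 to 1.11). At 5 days, over the span from its first base, it was sparser, with 101 peaks and a ratio of 0.77 (0.62 to 0.96). That span includes 504642 bases before the first peak, which are empty at both ages. Measured from first to last peak, its 5 day density was 9.52 per Mb (7.75 to 11.6) instead of 9.09. The ratio was not computed on that shorter span, so whether its interval would still exclude 1 was not tested. The other 5 chromosomes had ratios to the rest whose intervals included 1 at both ages. The 14 ratio intervals were not adjusted for their number.

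**Figure D1:**
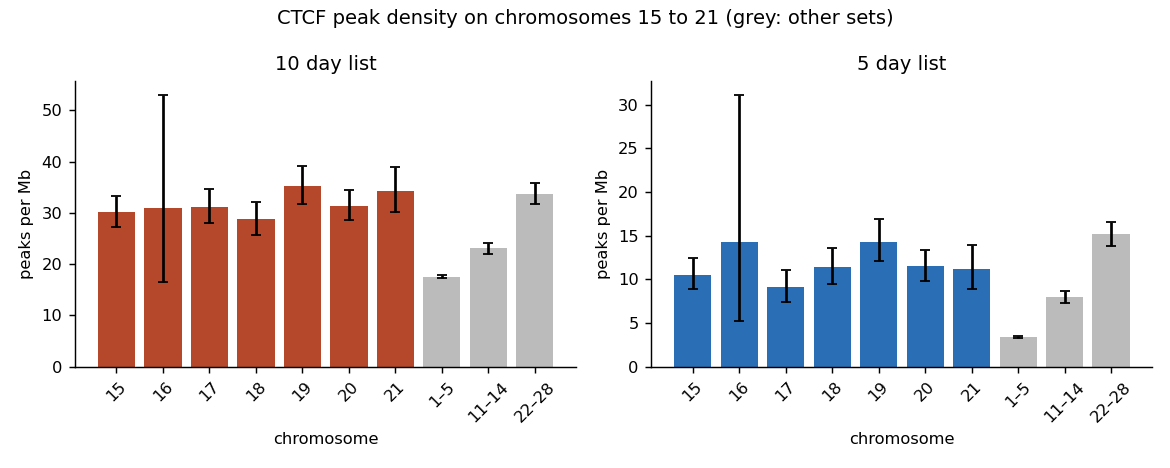
Peaks per Mb (vertical axis, from 0) in the 10 day list (left) and the 5 day list (right) on each of chromosomes 15 to 21 (coloured) and on 3 sets of other chromosomes (grey); error bars are exact Poisson 95% intervals of the count. At 10 days the 7 chromosomes lie between 28.8 and 35.3 per Mb, above the grey bars for chromosomes 1 to 5 and 11 to 14. The vertical scales of the panels differ.

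The density of chromosomes 15 to 21 stood between that of the larger and that of the smallest microchromosomes. It was 1.37 times that of chromosomes 11 to 14 at 10 days (1.28 to 1.46), and 1.42 times at 5 days (1.27 to 1.58). Set against chromosomes 22 to 28 it was 0.94 times as high at 10 days (0.87 to 1.01) and 0.74 times as high at 5 days (0.66 to 0.84). The 10 day lists of these last 2 sets therefore did not differ in density beyond counting error, while at 5 days the smallest chromosomes were denser. Against macrochromosomes 1 to 5 the ratio was 1.80 at 10 days (1.71 to 1.88) and 3.35 at 5 days (3.07 to 3.64).

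Chromosomes 15 to 21 held 2.80 times as many peaks at 10 days as at 5 days (2.57 to 3.04). The factor was near that of chromosomes 11 to 14, 2.90 (2.64 to 3.18), and above that of chromosomes 22 to 28, 2.23 (2.00 to 2.48). On chromosomes 6 to 10 it was 3.72 (3.45 to 4.02). In the rest of the lists as a whole, where chromosomes 1 to 5 have a factor of 5.21 (4.97 to 5.46), it was 3.79 (3.68 to 3.91). By chromosome the factor ran from 2.46 on chromosome 19 (2.02 to 3.02) to 3.44 on chromosome 17 (2.75 to 4.33) among the larger 6. Those intervals overlap. The factor depends on the score limit of the 10 day list. When that list was limited to scores of at least 29, which left 5809 peaks, chromosomes 15 to 21 kept 643 of them. That was 0.86 times their 5 day count (0.77 to 0.96). The whole 5 day list has 5830 peaks, so at nearly equal lengths these chromosomes held a smaller part of the 10 day list. Why the factor differs between sets of chromosomes was not tested.

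Positions listed at both ages were spread over all 7 chromosomes. A peak counts as shared here when it overlaps any peak of the other age by 1 bp or more; the others are unmatched. At 10 days 416 of the 2089 peaks were shared, or 19.9% (18.2 to 21.7), where 15.8% of the whole 10 day list was shared. At 5 days 417 of the 747 peaks were shared, or 55.8% (52.2 to 59.4), where 57.6% of the whole 5 day list was shared. The 10 day share was thus above that of the rest of its list, 15.3% (14.8 to 15.9), but not particular to these chromosomes, since it was 18.3% on chromosomes 11 to 14 (16.6 to 20.2), 23.1% on chromosomes 22 to 28 (20.6 to 25.7) and 11.1% on chromosomes 1 to 5 (10.5 to 11.7). The 5 day share differed from the rest, 57.9% (56.5 to 59.2), by less than counting error. Overlap was nearly always one to one, since only 6 peaks at 10 days and 5 at 5 days met more than 1 peak of the other age.

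Chromosome 17 had the lowest share at both ages, with 52 of 347 peaks shared at 10 days (14.99%, 11.4 to 19.2) and 50 of 101 at 5 days (49.5%, 39.4 to 59.6). The highest shares among the larger 6 were 22.6% on chromosome 19 at 10 days (18.3 to 27.3) and 60.3% on chromosome 15 at 5 days (51.6 to 68.6). Their intervals overlap those of chromosome 17. Shared peaks made up 6.29 per Mb at 10 days (5.70 to 6.92) and 6.30 per Mb at 5 days (5.71 to 6.94), which are nearly the same positions. Shared densities at 10 and 5 days were 4.23 and 4.23 per Mb on chromosomes 11 to 14, 7.78 and 7.81 on chromosomes 22 to 28, and 1.95 and 1.94 on chromosomes 1 to 5, so that of chromosomes 15 to 21 lies between its neighbours in size. Unmatched peaks numbered 1673 at 10 days and 330 at 5 days, or 25.3 per Mb (24.1 to 26.5) and 4.99 per Mb (4.46 to 5.56).

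**Figure D2:**
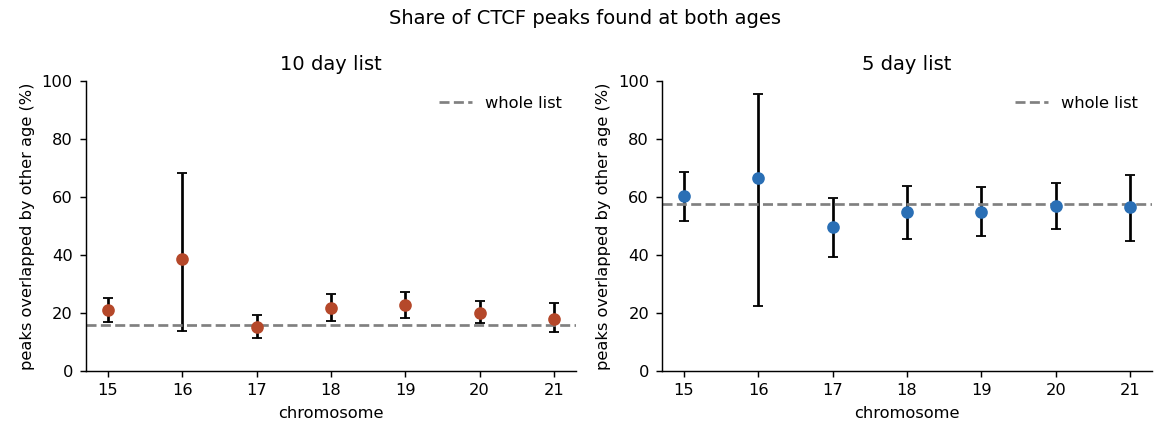
Percent of peaks overlapped by at least 1 bp by a peak of the other age (vertical axis), by chromosome, in the 10 day list (left) and the 5 day list (right); points are shares, bars exact Clopper-Pearson 95% intervals, and dashed lines the whole lists at 15.8% and 57.6%. Chromosome 17 has the lowest share in each panel, and the wide bars of chromosome 16 rest on 13 and 6 peaks.

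Overlapping peaks of the 2 ages lay close together. There were 411 pairs in which each peak had the other as its best overlap. The median offset of their starts was 38 bp (interquartile range 15 to 69), 360 pairs were within 100 bp, and 6 had the same start. The median offset by chromosome ran from 32.5 bp on chromosome 19 to 45 bp on chromosome 21 among the larger 6. Scores at 10 and 5 days had a Spearman correlation of 0.63 over the 411 pairs, from 0.52 on chromosome 20 to 0.70 on chromosome 21. The pairs share their libraries and are not replicates.

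Shared peaks ranked high within their own lists. The median score of shared peaks was 42 at 10 days, against 24 for unmatched ones, and at 5 days the medians were 34 for shared and 16 for unmatched peaks. Of the 2089 peaks at 10 days, 643 (30.8%, 28.8 to 32.8) were in the upper 25% of their list, which takes in all scores of 29 or more and, with ties, 27.2% of the whole list. At 5 days 201 of 747 (26.9%, 23.8 to 30.2) had scores of 38 or more, the upper 25% there, where the whole list had 25.2%. The 10 day share was above that of the rest of its list, 26.8% (26.2 to 27.4), and between those of chromosomes 11 to 14 (28.6%, 26.6 to 30.8) and chromosomes 22 to 28 (34.4%, 31.6 to 37.3), whose intervals both overlap its own. At 5 days the rest had 24.99% (23.8 to 26.2), and the intervals overlap. Among the larger 6 at 5 days, chromosome 17 had the lowest share in the upper 25%, 18 of 101 peaks (17.8%, 10.9 to 26.7). Chromosome 21 had the highest, 25 of 78 (32.1%, 21.9 to 43.6). Their intervals overlap, and both include the 25.2% of the whole list. On chromosome 16 the counts were 8 of 13 at 10 days (61.5%, 31.6 to 86.1) and 1 of 6 at 5 days (16.7%, 0.42 to 64.1).

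Few of the very highest scores fell on these chromosomes, which hold 9.78% of all peaks at 10 days and 12.8% at 5 days. The highest scores of the lists, 3381 at 10 days and 738 at 5 days, lay on none of chromosomes 1 to 28. Scores on those chromosomes ended at 816 and 355. Top scores were not counted for the other sets of chromosomes, so a low count need not be particular to chromosomes 15 to 21. Among the top 101 by score at 10 days, ties included, 1 lay on chromosomes 15 to 21 (0.99%, 0.03 to 5.39), and of the 101 highest at 5 days, 5 did (4.95%, 1.63 to 11.2). They held 40 of the 514 highest at 10 days (7.78%, 5.62 to 10.4) and 71 of the 509 highest at 5 days (13.9%, 11.1 to 17.3). Of the 1008 highest at 10 days 114 were theirs (11.3%, 9.42 to 13.4), and of the 1027 highest at 5 days 142 (13.8%, 11.8 to 16.1). From the 500 highest on, all 4 intervals include the share of the whole list. At the bottom, 381 peaks (18.2%) of the 10 day set and 99 (13.3%) of the 5 day set had the lowest score of their list, against 19.3% of the whole 10 day list and 11.3% of the whole 5 day list. Of these lowest scoring peaks, 16 at 10 days and 21 at 5 days were shared.

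Sharing fell with rank over all 4 parts of the 5 day list and over the upper parts of the 10 day list. Among 10 day peaks ranked in the top 25% of their list 310 of 567 were shared (54.7%, 50.5 to 58.8), against 50.1% in the rest of the list (48.6 to 51.6). In the next 25% 68 of 610 were shared (11.1%, 8.76 to 13.9), against 7.20% elsewhere (6.54 to 7.89), so the higher 10 day share of these chromosomes held at this rank beyond counting error. In the last 2 parts the shares were 4.14% (2.61 to 6.21) and 4.20% (2.42 to 6.73). Elsewhere they were 3.80% (3.30 to 4.35) and 2.70% (2.21 to 3.27). In both parts the intervals overlap, so a different course in the lower ranks is not shown. Among 5 day peaks of the top 25% 182 of 201 were shared (90.5%, 85.6 to 94.2), against 91.1% elsewhere (89.4 to 92.6). In the middle parts 65.4% (58.1 to 72.2) and 39.9% (31.9 to 48.2) were shared, against 71.5% (68.9 to 74.0) and 45.9% (43.1 to 48.7) elsewhere, with overlapping intervals. In the lowest 25%, 55 of 213 were shared (25.8%, 20.1 to 32.2), against 24.3% elsewhere (21.97 to 26.7). Peaks of equal score were given their middle rank, so these 4 parts of a list are of unequal size. A 10 day score of 29 has a middle rank of 74.6%. Such peaks therefore fall in the next 25% here, though the score limit of the upper 25% above takes them in.

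**Figure D3:**
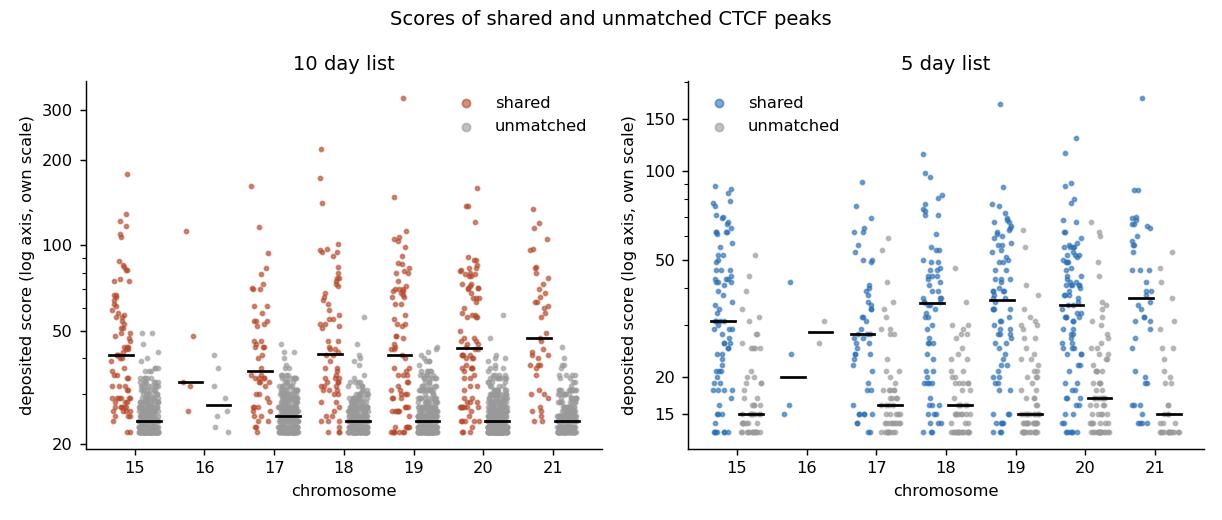
Deposited score of every peak (vertical log axis, each list on its own scale) by chromosome, in the 10 day list (left) and the 5 day list (right); coloured points are shared and grey points unmatched peaks, spread sideways for view, and black lines are medians. Shared peaks reach scores of 331 at 10 days and 177 at 5 days, while unmatched peaks stop at 57 and 67.

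Peaks were spread unevenly along the chromosomes at both ages. In 127 full bins of 500 kb, counted from the first base of each chromosome, the 10 day count had a median of 15 (interquartile range 11 to 20, lowest 0, highest 35) and the 5 day count one of 5 (2.5 to 8, lowest 0, highest 17). Empty bins numbered 1 at 10 days and 11 at 5 days. The variance of the bin counts was 3.09 times their mean at 10 days and 2.58 times at 5 days. Peaks scattered at random at a single rate would give equal variance and mean. No full bin held more peaks at 5 days than at 10 days, and 4 held equal numbers, among them the empty one. Except on chromosome 16, which lies within 1 partial bin, no chromosome had its densest bin at the same place at both ages.

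Bins rich in peaks at one age tended to be rich at the other, though this was not seen in the few bins of chromosome 21. Over the 127 bins the counts of the 2 ages had a Spearman correlation of 0.58, as a description of neighbouring regions in 2 libraries. By chromosome it was 0.73 on 17 (22 bins), 0.71 on 19 (19 bins), 0.67 on 20 (27 bins), 0.65 on 18 (21 bins), 0.47 on 15 (25 bins) and 0.07 on 21 (13 bins). These correlations have no intervals, and that of chromosome 21 rests on the fewest bins, so whether it differs from the others was not tested. Shared peaks, 417 of the 747 at 5 days, enter both counts, so these correlations also reflect the overlap described above. Correlations without shared peaks were not computed. Base composition and mappability are shared by both counts of a bin and were not measured.

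**Figure D4:**
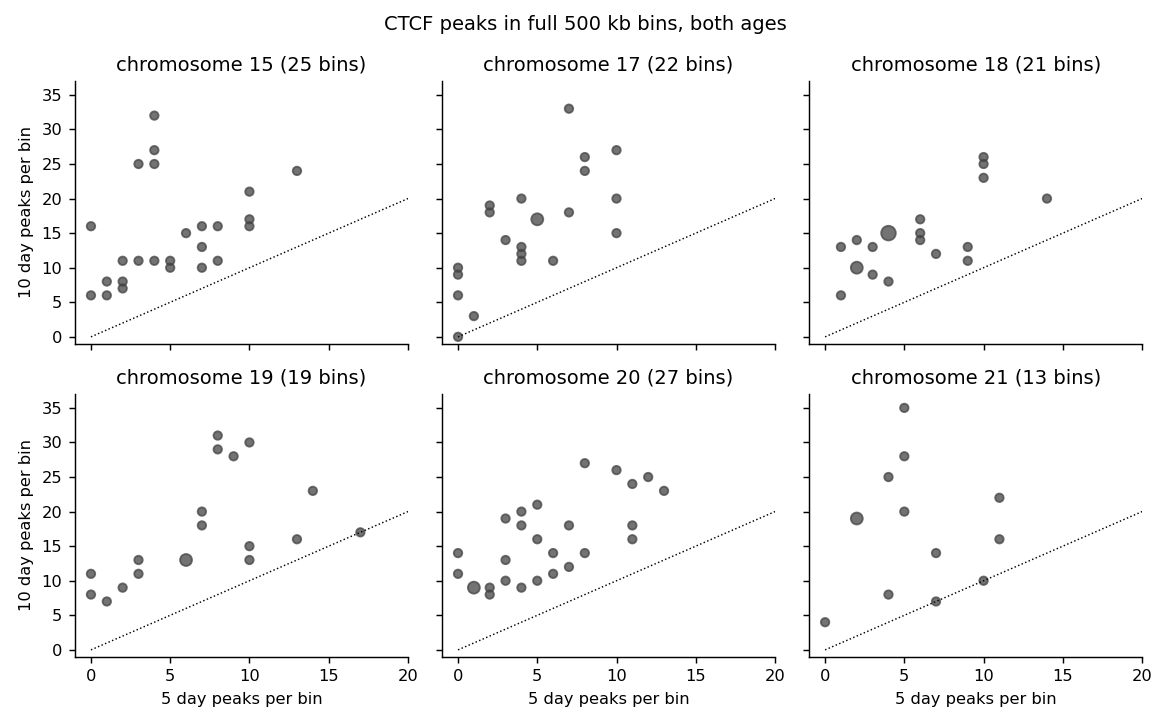
Each point is a full 500 kb bin of the named chromosome, with its 5 day peaks on the horizontal axis and its 10 day peaks on the vertical axis; larger points are several bins at the same values, and the dotted line marks equal counts. No bin lies below the line. On chromosome 21 the bin with 35 peaks at 10 days has 5 at 5 days, whereas on chromosome 19 a bin has 17 at each age.

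Neighbouring peaks stood a median of 17681 bp apart at 10 days (16674 to 18914) and 44625 bp at 5 days (38498 to 50346), start to start. The medians by chromosome ran from 14964 bp on chromosome 21 to 23103 bp on chromosome 18 at 10 days, and from 30360 bp on chromosome 19 to 53185 bp on chromosome 21 at 5 days, among the larger 6. Chromosome 21 thus had the closest spacing of the 6 at 10 days and the widest at 5 days. However, its intervals at 10 days (11139 to 19191) and 5 days (35343 to 73402) overlap those of the other 5 at each age. On chromosomes 1 to 5 the medians were 35451 bp at 10 days and 100932 bp at 5 days. Close spacing was not particular to chromosomes 15 to 21. The medians at 10 and 5 days were 23555 and 47862 bp on chromosomes 11 to 14, and 15473 and 31506.5 bp on chromosomes 22 to 28. Of 2082 distances at 10 days 716 (34.4%) were under 10 kb and 78 (3.75%) under 1 kb. Of 740 distances at 5 days 111 were under 10 kb and 14 (1.89%) under 1 kb.

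Most runs of close peaks were short. When peaks starting less than 10 kb from the previous one were joined into runs, 928 of 1373 runs at 10 days and 542 of 636 at 5 days were single peaks. The longest runs had 9 peaks at 10 days and 5 at 5 days, both on chromosome 19. Long gaps were fewer in the longer 10 day list: 118 of 2082 distances exceeded 100 kb and 0 exceeded 500 kb, against 191 and 16 of 740 at 5 days. Spacing depends on list length, so these counts are not a comparison of the ages. With the 10 day list limited to scores of at least 29, its median spacing was 58866.5 bp (51498 to 64925), wider than the 5 day 44625 bp (38498 to 50346). On chromosomes 15, 17 and 21 the longest peak-free stretch between neighbouring peaks at 10 days lay inside the longest such stretch at 5 days.

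**Figure D5:**
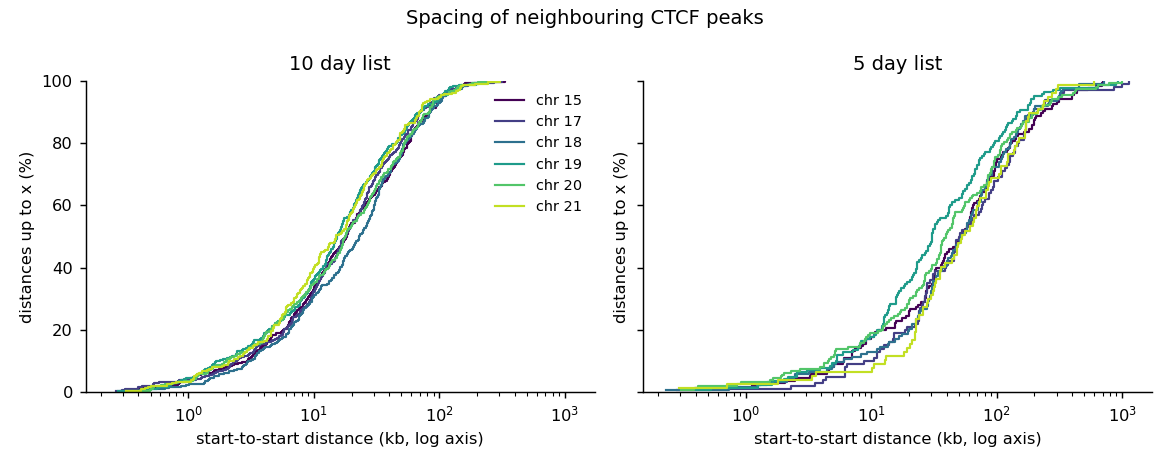
Cumulative percent of start-to-start distances between neighbouring peaks (vertical axis) against distance in kb (horizontal log axis), for chromosomes 15 and 17 to 21, in the 10 day list (left) and the 5 day list (right); chromosome 16 has too few peaks for a curve. The 5 day curves lie to the right, with a median of 44625 bp over the 7 chromosomes, against 17681 bp at 10 days.

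Chromosome 15 held 388 peaks at 10 days and 136 at 5 days over 12.9 Mb. Its highest 10 day peak, at 9235370 to 9235768, had a score of 179, and the 5 day peak 48 bp away scored 71. The highest 5 day peak, at 8107509 to 8107907, scored 89, and the 10 day peak there scored 117. Of all 10 day peaks of this chromosome, 20.9% were shared. The densest bin at 10 days, 7000001 to 7500000, had 32 peaks against 4 at 5 days, and 3 of the 32 were shared. The densest at 5 days, 11000001 to 11500000, had 24 peaks at 10 days, 7 of them shared, and 13 at 5 days, 6 of them shared. Inside that bin, 8 peaks at 10 days stood within 11581 bp, at 11132680 to 11144260, with scores up to 32, and 3 of them were shared. Next to it, and at 5 days reaching into it, lay the longest peak-free stretch of both ages, from 10651555 to 10984033 at 10 days and from 10374311 to 11071578 at 5 days. Within the 5 day stretch the 10 day list had 8 peaks, scoring 22 to 30.

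Chromosome 16 can be given peak by peak. At 10 days 13 peaks lay between 119 and 418962, and at 5 days 6 peaks between 109 and 96834. The highest peak of both lists was at the start of the sequence, at 119 to 517 with a score of 112 at 10 days and at 109 to 507 with a score of 42 at 5 days. Of the other shared 10 day peaks, those at 25810 and 26120 scored 33 and 32 and both overlapped the 5 day peak at 25850 (score 16). The 10 day peak at 26981 scored 48, where the 5 day peak at 26993 scored 24, and the 10 day peak at 74447 scored 26, where the 5 day peak at 74456 scored 15. The highest unmatched peaks were at 179098 to 179496 at 10 days (score 41) and at 96436 to 96834 at 5 days (score 31). Beyond 96834 only the 10 day list had peaks, 5 of them, with scores of 26 to 41.

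Chromosome 17 held 347 peaks at 10 days and 101 at 5 days over 11.1 Mb. Its first 504642 bases had 0 peaks at either age, and the first peaks started at 504643 at 10 days and 504921 at 5 days. The highest 10 day peak, at 5755412 to 5755810, scored 162, and the 5 day peak there scored 56. At 5 days the highest, at 2315887 to 2316285, scored 92, where the 10 day peak scored 52 and held rank 1367 of its list. Both of these positions were shared. The longest peak-free stretch at 5 days, from 4107779 to 5246610, was the longest of any of the 7 chromosomes at 1138832 bp. In it the 10 day list had 11 peaks, scoring 22 to 28, of which 0 were in the upper 25% of that list. It enclosed the longest 10 day stretch between neighbouring peaks, from 4205594 to 4521349, which is shorter than the empty first 504642 bases. The far end was crowded at 10 days: the bin from 10500001 to 11000000 had 33 peaks at 10 days, 2 of them shared, and 7 at 5 days. Over the whole chromosome 14.99% of the 10 day peaks were shared. The last 1 Mb up to the last peak held 56 peaks at 10 days (42.3 to 72.7) and 15 at 5 days (8.40 to 24.7), against 28.97 and 8.34 per Mb between the end windows.

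Chromosome 18 held 314 peaks at 10 days and 124 at 5 days over 10.9 Mb, and its 10 day density was the lowest of the 7. Its highest 10 day peak, at 5944217 to 5944615, scored 219, and the 5 day peak there started 238 bp away and scored 95. The highest 5 day peak, at 8910477 to 8910875, scored 114, where the 10 day peak scored 95. Both lists put many peaks near 9.5 to 10 Mb, since the densest 10 day bin, 9500001 to 10000000, had 26 peaks at 10 days and 10 at 5 days. The densest 5 day bin, 4000001 to 4500000, had 20 peaks at 10 days and 14 at 5 days, with 7 shared in each list. Across chromosome 18, 21.7% of the peaks were shared at 10 days and 54.8% at 5 days. From 2557189 to 2818119 there were 0 peaks at 10 days and 1 at 5 days, which had the lowest score of its list, 13. The longest 5 day stretch, from 5060505 to 5781631, had 11 peaks in the 10 day list, scoring 22 to 28.

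Chromosome 19 held the highest scoring 10 day peak of the 7 chromosomes. It lay at 45235 to 45633 with a score of 331, and the 5 day peak 4 bp away scored 168. It closed a run of 9 peaks at 10 days from 14775 to 45633, 2 of them shared. The bin from 6000001 to 6500000 stood out at 5 days with 17 peaks, the most of any full bin in that list, and had 17 at 10 days too. In that bin 12 peaks of each list were shared, and 11 at 10 days and 9 at 5 days were in the upper 25% of their lists. The densest 10 day bin, 8500001 to 9000000, was of another kind, with 31 peaks at 10 days, 8 at 5 days and 4 shared in each list. Across chromosome 19, 22.6% of the peaks were shared at 10 days and 54.9% at 5 days. The highest unmatched 10 day peak of the chromosome, at 1013311 to 1013709 (score 44), was 282098 bp from the nearest 5 day peak and bordered the longest 10 day stretch, from 1013710 to 1268091. At 5 days the stretch from 1368306 to 2295915 was empty, and the 10 day list had 15 peaks in it, scoring 22 to 27.

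Chromosome 20 held the most peaks, 438 at 10 days and 160 at 5 days, over 13.9 Mb. Its highest 10 day peak, at 13772353 to 13772751, scored 159, and the 5 day peak there scored 78. The highest 5 day peak, at 12306239 to 12306637, scored 129, where the 10 day peak scored 138. It also had the highest unmatched peaks of the 7 chromosomes at both ages. At 10 days this was the peak at 6603971 to 6604369, with a score of 57 and the nearest 5 day start 61356 bp away, and at 5 days the peak at 1023114 to 1023512, with a score of 67 and the nearest 10 day start 11820 bp away. The densest 10 day bin, 10000001 to 10500000, had 27 peaks at 10 days and 8 at 5 days, and 7 of each were shared. Across chromosome 20, 20.1% of the peaks were shared at 10 days and 56.9% at 5 days. The first bin was the densest at 5 days, with 23 peaks at 10 days and 13 at 5 days, and 0 of the 13 scored in the upper 25% of the list. The 5 day stretch from 3790574 to 4778814 was empty at 5 days but held 27 peaks at 10 days, 4 of them in the upper 25%, with scores up to 39.

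Chromosome 21, the shortest of the larger 6 at 6.96 Mb, held 239 peaks at 10 days and 78 at 5 days. The highest peaks of the lists overlapped, at 3007749 to 3008147 with a score of 134 at 10 days and at 3007841 to 3008239 with a score of 177 at 5 days, which was the highest 5 day score on the 7 chromosomes. The first 3 bins held 25, 35 and 28 peaks at 10 days and 4, 5 and 5 at 5 days. The bin from 500001 to 1000000, with 35 peaks, was the fullest of all 127 full bins at 10 days, and 3 of its peaks were shared. The bins from 2000001 to 2500000 and from 4500001 to 5000000 had 10 and 7 peaks at 10 days and the same numbers at 5 days. Other bins were far apart: those from 3500001 to 4000000 and from 6000001 to 6500000 each had 19 at 10 days and 2 at 5 days. A pair of runs of 8 peaks at 10 days, at 1041969 to 1071058 and 3950774 to 3984975, had 0 shared peaks. Their peaks scored 22 to 31 and 22 to 35. Below the top 25% of the 10 day list by rank, 11.1% or fewer of the peaks on chromosomes 15 to 21 were shared in each part. The longest peak-free stretches nested, from 5139993 to 5442409 at 10 days and from 4914468 to 5513407 at 5 days, and the 5 day one held 6 peaks at 10 days.

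Unmatched peaks differed in how near the other list came. At 10 days the 1673 unmatched peaks were a median of 30406 bp from the nearest 5 day start, 613 of them (36.6%) over 50 kb away, and 35 (2.09%) within 1 kb. At 5 days the 330 unmatched peaks were a median of 9004.5 bp from the nearest 10 day start, with 15 (4.55%) over 50 kb away and 16 (4.85%) within 1 kb. The longer list leaves shorter distances to it, so these values are not a comparison of the ages. All highest peaks of the 7 chromosomes were shared in both lists, and the highest unmatched peak of each chromosome scored 41 to 57 at 10 days and 31 to 67 at 5 days.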

How the data were processed

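Each CTCF library came with 1 headerless list of 6 columns; the score in column 5 is a whole number the authors deposited per peak, and its meaning, the aligner, the peak caller, the threshold, any input library and the build of the genome have no statement in the labels or headers (not given in the sources used here). Other columns used are deposited start and end positions in bases. No genome of the build was used, so no sequence, motif or gene is given. The members and all limits were chosen with earlier results of these data known. Peaks were named by rule: per chromosome the highest and highest unmatched peak of each list, the densest 500 kb bin and the longest gap. Other peaks, bins, runs and end windows were chosen after their values were seen. Density divides the count by the Mb from the first base to the end of the last peak in either list, an upper limit where a chromosome extends further. Shares have Clopper-Pearson, counts exact Poisson, ratios exact conditional binomial and medians order-statistic intervals, all at 95%. A last, partial bin was left out of bin summaries. Functions were tested on simulated lists. Alternatives changed overlap, score limit, list length, span, merging, bins and rank base. Computations used scipy 1.17.1, pandas 2.3.3 and numpy 2.4.6 under Python 3.11.15; figures were drawn with matplotlib 3.10.9.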

Additional observations from a re-analysis of the deposited data

How the results depend on the processing

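Of 53 alternatives for the results over chromosomes 15 to 21, 35 stayed within the interval of the value (for counts, within 1.5 times), 17 moved and 1 reversed; of 98 for single chromosomes, 63 stayed and 35 moved. The 10 day to 5 day count ratio reversed to 0.86 with the 10 day list at equal length, where 643 peaks remained, their median spacing was 58866.5 bp, 50.2% of them overlapped 5 day peaks, and 43.9% of the 747 peaks at 5 days overlapped one of them. The whole lists then held 5809 and 5830 peaks, so 0.86 means a smaller part of the 10 day list on these chromosomes. With only the upper 50% of each list by score there were 1177 and 394 peaks, 17.8 and 5.95 per Mb, spacings of 30849.5 and 90554 bp and shares of 25.1% and 75.1%, at 10 and 5 days, and a 10 day density ratio to chromosomes 1 to 5 of 1.99. Widened by 500 bp on each side, 22.8% were shared at 10 days and 59.4% at 5 days. The upper 10% of the lists took in 12.3% of these peaks at 10 days, and 10.8% at 5 days. The lower counts and densities, the wider spacings and the direction of the fall of the count ratio follow from the construction. So do the fall in the 5 day share at equal length, the shares after widening and those of the upper 10%. The rises in shared percentage under score limits do not: higher scoring peaks were more often shared. Nor did equal length fix that the ratio would fall below 1 (0.77 to 0.96). The same holds for the 10 day spacing (51498 to 64925 bp) passing the 5 day one, 44625 bp (38498 to 50346). The cause of either was not tested. For the density ratio the cause was not tested. Density ratios to chromosomes 11 to 14 and 22 to 28 kept their side of 1 under the score limit, merging and without chromosome 16. At 10 days, however, every interval of the ratio to chromosomes 22 to 28 included 1, so its side is not settled. No paired analysis was possible because there are no replicates at either age, and no library could be left out. Since read depth is unknown, a site missing from a list may be unoccupied or undetected.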

Other observations

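The random sequence assigned to chromosome 16 held 0 peaks at 10 days and 1 at 5 days; it was not counted among the peaks of chromosome 16. The first 1 Mb of chromosome 21 held 60 peaks at 10 days (95% interval 45.8 to 77.2) and 9 at 5 days (4.12 to 17.1), where the stretch between the end windows of 1 Mb held 29.6 per Mb at 10 days and 12.5 per Mb at 5 days. This window was chosen after its values were seen. On chromosome 18 the first 1 Mb held 29 peaks at 10 days (19.4 to 41.6) and 6 at 5 days (2.20 to 13.1). The last 1 Mb held 40 at 10 days (28.6 to 54.5) and 19 at 5 days (11.4 to 29.7). Between these windows there were 27.5 per Mb at 10 days and 11.1 at 5 days. Both values lie inside the intervals of the first 1 Mb and just below those of the last. These windows were also chosen after their values were seen.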
